A study of Mus musculus with 12 samples.

Results

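Galectins are small lectins that bind beta-galactoside sugars on glycoproteins and glycolipids. They act outside the cell, where they cross-link receptors and matrix, and inside it, where they bind sugars exposed on damaged endosomes and lysosomes. In the nervous system galectin-3 is known as a protein of phagocytic microglia, and galectin-1 as a protein of motor neurons, Schwann cells and reactive glia. The genes described here were 4 galectins, Lgals1, Lgals3, Lgals8 and Lgals9, and Lgals3bp, which encodes a secreted glycoprotein that galectins bind and is not itself a lectin of this family. They were chosen by name, through the GENCODE M21 symbols of the deposited gene identifiers. These 5 genes stand among 33906 in the tables, and all 5 were among the 18118 with enough reads to be tested.

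The RNA came from the lumbar spinal cord of 12 mice, 3 in each of 4 groups, and poly(A) RNA was sequenced. Healthy WT mice made up group H (H1, H2 and H4). Groups P, C and E held mice of an ALS model (amyotrophic lateral sclerosis, a fatal degeneration of motor neurons), so all 3 share the model's genotype. The model's line and allele and the ages of the mice were not stated in the material at hand. Group P was given PBS, a saline buffer (P66, P67 and P74). Group C was given Mn@CDs, carbon dots doped with manganese that act as a nanozyme like superoxide dismutase (C79, C84 and C85). The libraries E75, E77 and E90 form group E, taken here as the mice given Edaravone, an antioxidant ALS drug, because the series text uses D for that drug and E for no other treatment. There was no wild-type group under either treatment. Levels are FPKM, read numbers scaled by exon length and library depth, so levels of different genes can be set side by side. A difference is the change of log2(FPKM + 1) ± its standard error with n = 3 mice per group, and it passed at an adjusted p under 0.05 in limma over all tested genes.

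The tissue carried the markers of spinal cord in all 12 libraries. The 8 neuron markers summed to 793 to 1654 FPKM and the 8 astrocyte markers to 1158 to 3296 FPKM. Tissue from outside the cord was also present and uneven. The 6 skeletal muscle markers summed to 1848 FPKM in H1, 165 in H2 and 145 in P74, and to at most 35.7 FPKM in the other 9 libraries. The 7 Schwann cell and nerve root markers summed to 45.8 to 126 FPKM in H, 164 to 244 in P, 79.1 to 191 in C and 384 to 874 in E. The 8 meningeal fibroblast markers summed to 9.08 to 29.3 FPKM in H, 45.7 to 126 in P, 48.9 to 115 in C and 141 to 290 in E. In bulk RNA of this kind, fewer cells of a type and less RNA per cell cannot be told apart.

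The genes lie apart from each other on GRCm38. Lgals1 (ENSMUSG00000068220) lies on chromosome 15 from 78926725 to 78930465, Lgals3 (ENSMUSG00000050335) on chromosome 14 from 47367751 to 47386160, and Lgals8 (ENSMUSG00000057554) on chromosome 13 from 12439415 to 12464944. Lgals9 (ENSMUSG00000001123, 78962974 to 78984946) and Lgals3bp (ENSMUSG00000033880, 118392751 to 118402092) are on chromosome 11. All 5 are protein-coding and were measured over annotated exons. Reads recovered from the FPKM came out whole for the other 4 but not for Lgals1, so its exon length in the authors' annotation may differ from the one used here. Lgals8 shares 155 exon bases with Heatr1 on the opposite strand, which had 3.94 to 5.88 FPKM. Whether the counting used strand was not stated, so reads of that stretch could belong to either gene.

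RefSeq promoter windows on GRCm38.p6, from 250 bases before to 50 after the annotated start, were found for 4 of the 5 genes, Lgals3, Lgals3bp, Lgals8 and Lgals9. The 3 windows below belong to the genes whose RNA rose in all 3 groups of the model, and they are shown because these genes moved together. Capitals mark every match, on either strand, to one of 7 motifs: GAAANNGAA and its shorter form AANNGAAA for interferon regulatory factors, TTCNNNGAA for STAT factors, GAGGAA for PU.1 (a factor of microglia and macrophages), TGANTCA for AP-1, GGANNTTCC for NF-kB and TATAAA for a TATA box. The shorter interferon motif, which can overlap the longer one, was added after the windows had been read. The window of Lgals3 (chr14:47373610-47373909, plus strand) starts inside the GENCODE gene.
Lgals3: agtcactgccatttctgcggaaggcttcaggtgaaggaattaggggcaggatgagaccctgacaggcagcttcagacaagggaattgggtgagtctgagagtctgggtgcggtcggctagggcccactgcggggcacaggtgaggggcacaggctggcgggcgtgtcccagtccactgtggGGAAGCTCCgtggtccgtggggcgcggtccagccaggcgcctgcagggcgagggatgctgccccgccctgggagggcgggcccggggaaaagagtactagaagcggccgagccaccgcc
Lgals3bp: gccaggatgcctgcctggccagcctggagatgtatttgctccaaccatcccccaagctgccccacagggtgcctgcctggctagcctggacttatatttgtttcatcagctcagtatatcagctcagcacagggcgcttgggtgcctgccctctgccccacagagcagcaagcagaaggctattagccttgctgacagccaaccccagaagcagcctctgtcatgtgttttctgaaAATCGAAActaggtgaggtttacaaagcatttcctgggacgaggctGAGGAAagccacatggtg
Lgals9: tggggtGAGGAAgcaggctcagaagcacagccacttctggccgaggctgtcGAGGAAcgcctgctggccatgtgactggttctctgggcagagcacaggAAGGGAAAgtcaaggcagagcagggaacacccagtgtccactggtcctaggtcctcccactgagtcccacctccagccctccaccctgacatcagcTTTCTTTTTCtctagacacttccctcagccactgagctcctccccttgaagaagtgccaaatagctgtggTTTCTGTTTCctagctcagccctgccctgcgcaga

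The window of Lgals9 (chr11:78984875-78985174, minus strand) held 2 matches to GAAANNGAA, starting at bases -54 and 16 from the annotated start, 3 to AANNGAAA, and 2 to GAGGAA, at -244 and -199. The window of Lgals3bp (chr11:118401910-118402209, minus strand) held 1 match to AANNGAAA at -14 and 1 to GAGGAA at 32. The window of Lgals3 held 1 match to GGANNTTCC at -69 and none to the other 6 motifs. Among the 32817 promoter windows of the table, 8.55% held GAAANNGAA, 23.9% AANNGAAA, 28.3% GAGGAA and 4.26% GGANNTTCC. The Lgals3 window was also the richest of the 4 in G and C, at 67% against a median of 52.7% over all windows, and it held 18 CG pairs against a median of 7. The matches are descriptions of letters, and the 3 genes had no motif of the 7 in common.

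**Figure D1:**
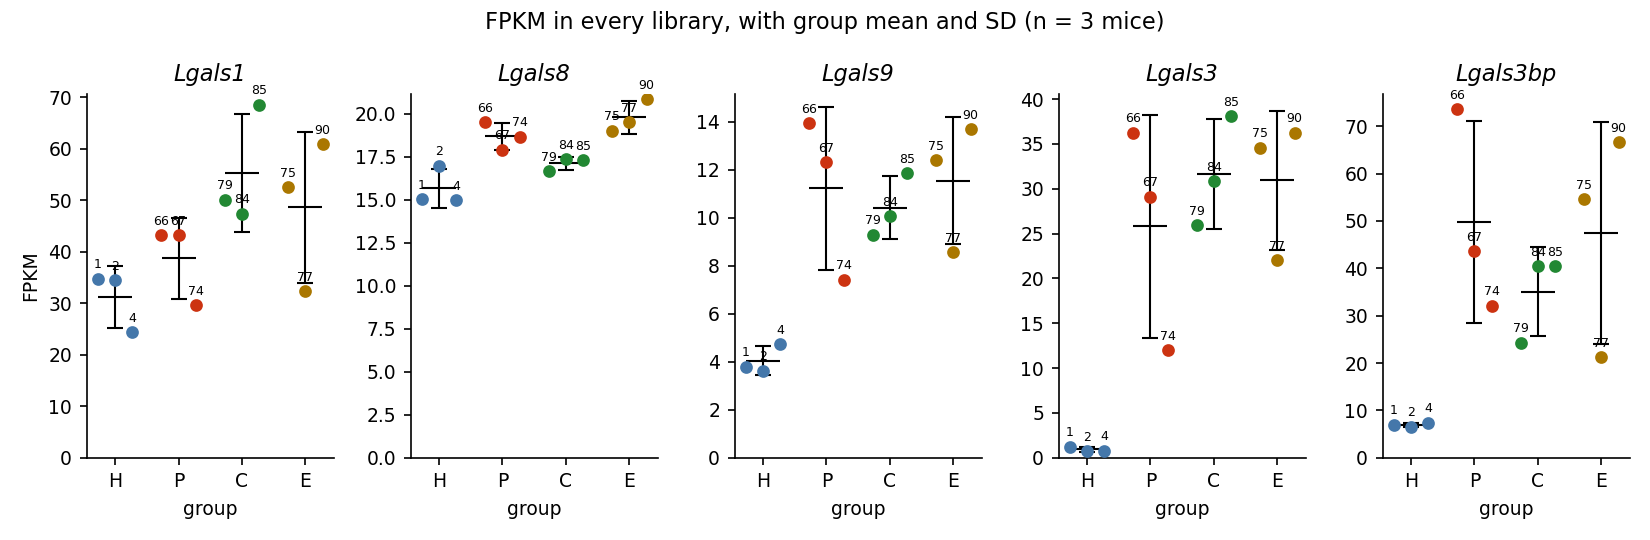
FPKM (vertical axis, from 0) of the 5 genes in every library by group, with points labelled by mouse number and bars for the group mean and SD (n = 3 mice). Lgals3 lies between 0.763 and 1.25 FPKM in H and between 12 and 38.1 FPKM in the 9 model libraries, while the groups of Lgals8 differ little.

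Lgals3, Lgals3bp and Lgals9 were higher in the saline-treated model than in healthy cord, Lgals8 was slightly higher, and Lgals1 did not pass. P against H sets the model given PBS against healthy WT mice, for which no PBS is stated here. The model, the PBS, the unstated ages and the uneven tissue from outside the cord cannot be told apart in this comparison. In P against H 4 of the 5 genes were called higher, against 12.2% of all tested genes. The median difference of the 5 was 1.24, against 0.07 over all tested genes. Of all genes called in that comparison 78.9% were higher, and 53.2% with median-ratio scaling of the libraries, which lowered differences by a median of 0.09.

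Lgals3 encodes galectin-3, the one galectin with a long proline- and glycine-rich tail through which it forms multimers. It had 1.25, 0.763 and 0.809 FPKM in H1, H2 and H4, which came from 39, 26 and 26 reads. In P66, P67 and P74 it had 36.3, 29.1 and 12 FPKM. The groups did not overlap, and P74 was the lowest library of the model. The group means were 0.941 ± 0.269 (SD, n = 3) and 25.8 ± 12.4 FPKM, a ratio of 27.4, and the difference was 3.66 ± 0.33 (adjusted p = 0.00019), the sixth largest increase among all tested genes. On the log2(FPKM + 0.1) scale, which holds low values back less, the difference was 4.52.

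Lgals3bp encodes the galectin-3-binding protein, a large scavenger-receptor-type glycoprotein known as an interferon-induced gene. It had 7.01, 6.61 and 7.44 FPKM in H1, H2 and H4. In P66, P67 and P74 it had 73.6, 43.7 and 32.1 FPKM, with a wide spread and no overlap with H. The means were 7.02 ± 0.413 and 49.8 ± 21.4 FPKM, a ratio of 7.09, and the difference was 2.58 ± 0.39 (adjusted p = 0.00251).

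Lgals9 encodes galectin-9, which joins 2 sugar-binding domains by a linker and is a ligand of the immune receptor encoded by Havcr2. Its level was 3.79, 3.62 and 4.74 FPKM in the healthy mice H1, H2 and H4. The saline mice P66, P67 and P74 had 13.9, 12.3 and 7.43 FPKM. The groups did not overlap, P74 again being the lowest library of P. The ratio of the means was 2.77, and the difference was 1.24 ± 0.21 (adjusted p = 0.00377).

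Lgals8 encodes galectin-8, a tandem-repeat galectin that marks ruptured vesicles for autophagy. It had 15, 17 and 15 FPKM in the healthy mice H1, H2 and H4, and its level was 19.5, 17.9 and 18.7 FPKM in the saline mice P66, P67 and P74. The ranges did not overlap, but they lay close. The difference was 0.24 ± 0.07 (adjusted p = 0.048), and it passed in 2 of 12 other settings. The call was lost with median-ratio scaling (0.14, adjusted p = 0.262), without the filter (adjusted p = 0.0807), with limma-voom (adjusted p = 0.0503), with a fit of these 2 groups alone (adjusted p = 0.138) and without any one of the 6 libraries (adjusted p from 0.0517 to 0.154).

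Lgals1 encodes galectin-1, a small galectin with 1 sugar-binding domain that works as a dimer. Its level was 34.8, 34.5 and 24.4 FPKM in the healthy mice H1, H2 and H4. The saline mice P66, P67 and P74 had 43.3, 43.2 and 29.6 FPKM. The groups overlapped, since P74 lay below H1 and H2. The difference was 0.30 ± 0.24 (95% confidence interval -0.23 to 0.82, adjusted p = 0.414) and passed in none of 12 other settings. In healthy cord Lgals1 was the most abundant of the 5 by FPKM and Lgals3 the least.

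The treated groups of the model were each set against healthy cord as well. The 3 groups of the model share the same H libraries in these comparisons, so their differences from H are not independent. Lgals3 had 26, 30.8 and 38.1 FPKM in C79, C84 and C85, and 34.6, 22 and 36.2 FPKM in E75, E77 and E90. Its differences from H were 4.06 ± 0.33 in C (adjusted p = 0.000151) and 4.02 ± 0.33 in E (adjusted p = 0.000171). Every model library lay far above the 3 healthy ones, whose highest value was 1.25 FPKM.

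Lgals3bp had 24.3, 40.5 and 40.4 FPKM in C79, C84 and C85, and 54.6, 21.3 and 66.6 FPKM in E75, E77 and E90. It was higher than in H by 2.13 ± 0.39 in C (adjusted p = 0.00858) and by 2.45 ± 0.39 in E (adjusted p = 0.00309). The lowest model library, E77, still lay above the highest healthy one. Lgals9 had 9.30, 10.1 and 11.9 FPKM in C79, C84 and C85, and 12.4, 8.57 and 13.7 FPKM in E75, E77 and E90. It was higher than in H by 1.18 ± 0.21 in C (adjusted p = 0.00644) and by 1.30 ± 0.21 in E (adjusted p = 0.00278).

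Lgals8 had 16.7, 17.4 and 17.3 FPKM in C79, C84 and C85, which overlapped with H2. Its difference of C from H did not pass (0.12 ± 0.07, adjusted p = 0.33). In E75, E77 and E90 it had 19, 19.5 and 20.9 FPKM, above every healthy library, and it rose by 0.32 ± 0.07 (adjusted p = 0.0169). That call was lost in 4 of 12 other settings, which were median-ratio scaling (0.20, adjusted p = 0.116), a fit of these 2 groups alone (adjusted p = 0.0649), and leaving out H1 (adjusted p = 0.0501) or E90 (adjusted p = 0.0767).

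Lgals1 had 50.1, 47.4 and 68.5 FPKM in C79, C84 and C85, above all of H and all of P. Its difference of C from H was 0.81 ± 0.24 (adjusted p = 0.0621), which did not pass, though it passed with a fit of these 2 groups alone (adjusted p = 0.0397). In E75, E77 and E90 it had 52.6, 32.3 and 60.9 FPKM, and E77 overlapped with H. The difference of E from H was 0.59 ± 0.24 (adjusted p = 0.124), and without E77 it was 0.86 (adjusted p = 0.0288). In all, 3 of the 5 genes were called higher in C against H and 4 in E against H, where 7.25% and 11.1% of all tested genes were. Of all genes called, 87.2% were higher in C against H and 83.7% in E against H, and 67% and 58.4% with median-ratio scaling.

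**Figure D2:**
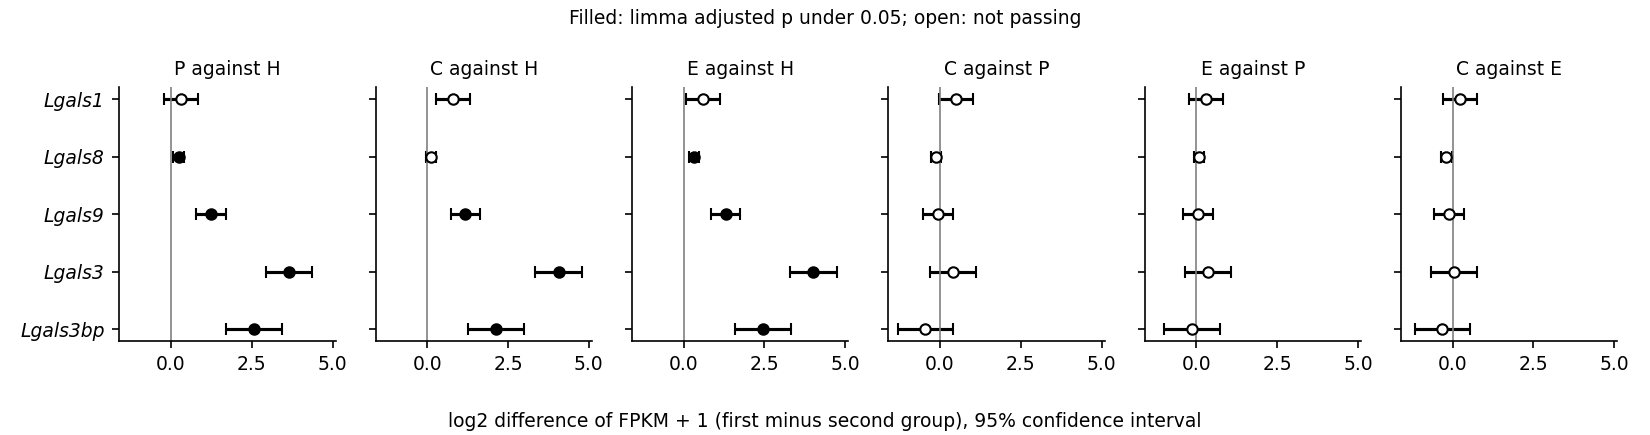
Differences of log2(FPKM + 1) for the 5 genes in 6 comparisons, first group minus second, with 95% confidence intervals from limma and filled points for an adjusted p under 0.05. Filled points occur only in the 3 comparisons with H, where Lgals3 has the largest differences, from 3.66 to 4.06.

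No difference between a treated group and the saline group of the model passed for any of the 5 genes. In C against P 0 of 5 were called by limma, 0 at an unadjusted p under 0.05 and 0 by limma-voom, where 0.00552% of all tested genes were called. Of the 18118 tested genes, 1802 had an unadjusted p under 0.05 by limma in that comparison. In E against P the counts were again 0, 0 and 0, with 0% of all tested genes called (889 of them at an unadjusted p under 0.05, and 0 by limma-voom).

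Lgals3 differed by 0.40 ± 0.33 in C against P (95% confidence interval -0.32 to 1.12, adjusted p = 0.726) and by 0.35 ± 0.33 in E against P (-0.36 to 1.07, adjusted p = 0.998). The saline library P74 decided the sign of both. Without it the differences were -0.05 and -0.10. Lgals3bp differed by -0.45 ± 0.39 in C against P (-1.31 to 0.41, adjusted p = 0.744) and by -0.13 ± 0.39 in E against P (-0.995 to 0.73, adjusted p = 0.998). The second of these was 0.19 without P66 and 0.35 without E77.

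Lgals9 differed by -0.06 ± 0.21 in C against P (-0.52 to 0.39, adjusted p = 0.95) and by 0.06 ± 0.21 in E against P (-0.40 to 0.51, adjusted p = 0.998). Lgals8 lay lower in each C library than in any P library, and the difference was -0.12 ± 0.07 (-0.28 to 0.04, adjusted p = 0.636). In E against P Lgals8 differed by 0.08 ± 0.07 (-0.08 to 0.24, adjusted p = 0.998). For Lgals1 each C library lay above every P library, and the difference was 0.51 ± 0.24 (-0.02 to 1.03, unadjusted p = 0.0577 and adjusted p = 0.522 by limma). How many of all tested genes separate C from P in this way was not counted. In E against P Lgals1 differed by 0.29 ± 0.24 (-0.23 to 0.82, adjusted p = 0.998).

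The treated groups were also compared with each other, and 0 of the 5 genes passed in C against E by limma or by limma-voom, where 0.171% of all tested genes were called. Only Lgals8 of the 5 had an unadjusted p under 0.05 by limma, where 1991 of the 18118 tested genes did. Lgals8 lay at 16.7 to 17.4 FPKM in C and 19 to 20.9 FPKM in E, without overlap, a pattern not counted over all tested genes. Its difference was -0.20 ± 0.07 (95% confidence interval -0.36 to -0.04, adjusted p = 0.377). The differences of the other 4 were 0.21 ± 0.24 for Lgals1, 0.05 ± 0.33 for Lgals3, -0.32 ± 0.39 for Lgals3bp and -0.12 ± 0.21 for Lgals9.

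The order of the group means was C, E, P and H for Lgals1 and Lgals3, with 55.3 ± 11.5, 48.6 ± 14.7, 38.7 ± 7.86 and 31.2 ± 5.94 FPKM for Lgals1. It was P, E, C and H for Lgals3bp, with 49.8 ± 21.4, 47.5 ± 23.5, 35.1 ± 9.34 and 7.02 ± 0.413 FPKM. For Lgals8 and Lgals9 it was E, P, C and H, with 19.8 ± 0.956, 18.7 ± 0.791, 17.1 ± 0.392 and 15.7 ± 1.14 FPKM for Lgals8. No 2 neighbouring groups within the model differed by the test for any of the 5, and the step down to H passed for Lgals3, Lgals3bp and Lgals9.

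Within a library the balance of Lgals3 and Lgals1 shifted. The ratio of Lgals3 to Lgals1 in FPKM was 0.036, 0.0221 and 0.0332 in the healthy mice H1, H2 and H4, but 0.838, 0.674 and 0.406 in the saline mice P66, P67 and P74. The log2 ratio was higher in P by 4.36, with no overlap (exact permutation test, two-sided, p = 0.1, the smallest that 3 against 3 libraries allow). That difference restates the rise of Lgals3 beside a change of Lgals1 that did not pass, and is not separate evidence. In C and E the ratio lay between 0.518 and 0.682. Galectin-1 RNA still exceeded galectin-3 RNA in every library of the model.

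The ratio of Lgals3bp to Lgals3 was examined after the values had been seen. It was 5.61, 8.66 and 9.19 in the healthy mice H1, H2 and H4, but 2.03, 1.5 and 2.67 in P66, P67 and P74. It was 0.935, 1.31 and 1.06 in C79, C84 and C85, below every P library, and 1.58, 0.967 and 1.84 in E75, E77 and E90. The log2 ratio differed by -0.88 in C against P and by -0.51 in E against P, given as a description with no test because the ratio was picked for its values.

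**Figure D3:**
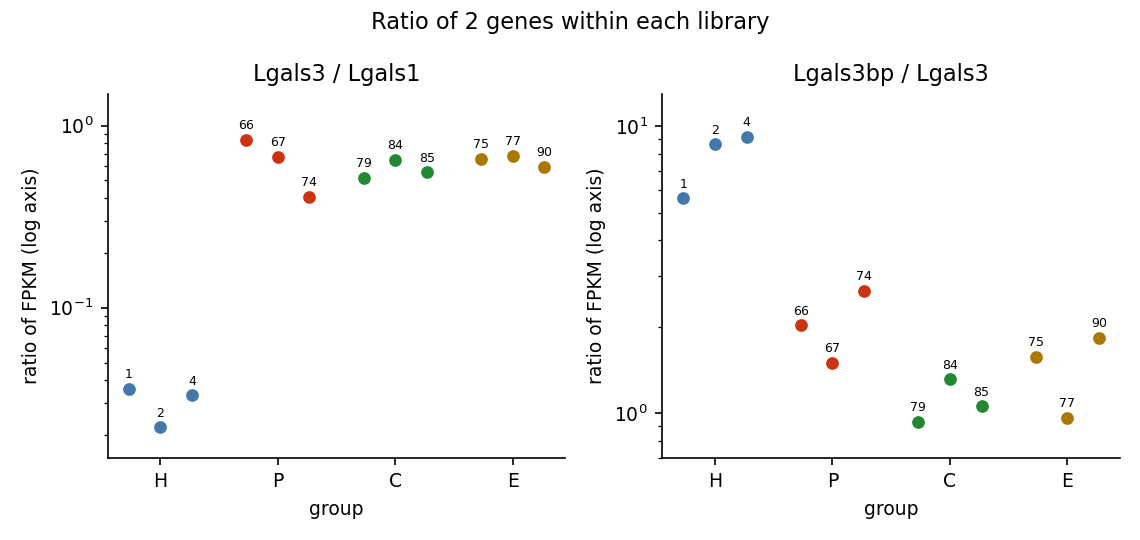
Ratio of FPKM of Lgals3 to Lgals1 (left) and of Lgals3bp to Lgals3 (right) within each library by group, on log axes, with points labelled by mouse number. The left ratio is 0.0221 to 0.036 in H and 0.406 to 0.838 in the model, and the right ratio is lower in all C libraries than in all P libraries.

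Markers of microglia rose in the model along with Lgals3, Lgals3bp and Lgals9. The 10 markers of activated microglia summed to 86.3 to 122 FPKM in H, 287 to 717 in P, 346 to 508 in C and 277 to 513 in E, and 9 of the 10 passed as higher in P against H (median difference 3.11). This sum leans on the more abundant of the 10. In H, Cst7, Clec7a, Itgax and Trem2 had means of 0.273, 0.347, 0.121 and 2.23 FPKM. None of the 10 markers was at 0. Among them Cst7, an inhibitor of cathepsins, differed by 4.64 ± 0.34, Clec7a, a receptor for glucans, by 4.63 ± 0.31, and Itgax, an integrin chain, by 3.41 ± 0.30. In H1, H2 and H4, Cst7 had 1, 1 and 12 reads and Itgax 16, 4 and 10. Both thus passed the read filter only through libraries of the model, where they are high. The 10 markers of homeostatic microglia summed to 91 to 107 FPKM in H and 199 to 428 in the model, and 9 of 10 passed as higher in P (median 1.55). Of 9 markers of border and blood macrophages 1 was higher in P against H, Ms4a7, and 4 were higher in E against H. Their sum was 1.49 to 3.19 FPKM in H, 2.88 to 6.93 in P, 5.09 to 7.69 in C and 5.87 to 12.7 in E, with Ly6c2 under 0.5 FPKM in every library. Ms4a7 had 2, 5 and 3 reads in H1, H2 and H4, so it passed the read filter only through libraries of the model. The 8 astrocyte markers also differed, with 6 higher in P, among them Gfap (2.05 ± 0.25). Of the neuron markers 7 of 8 were lower in P against H (median -0.60), and of the erythroid markers 3 of 5 were lower. Of the T and NK cell markers 2 of 3 tested were higher, Trac and Cd8a. Of the 6 listed, Cd3e, Cd3d, Cd3g and Cd8a stayed under 0.5 FPKM in every library. Cd8a had 1, 2 and 0 reads in H1, H2 and H4, so it passed the read filter only through libraries of the model. The part of these cell types in the differences of the galectin genes was not tested.

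Over the 9 libraries of the model, 15 relations were computed, 10 between pairs of the 5 genes and 5 with the log2 sum of the activated microglia markers. All points of a relation share their libraries and depth. Lgals9 and Lgals3bp followed each other (r = 0.86, exact permutation p = 0.00342, adjusted p = 0.0128 over the 15; rho = 0.93, p = 0.00075, adjusted p = 0.0112), and r was 0.93 without E77 and P74, the libraries farthest from the median. Lgals3 and Lgals9 did so too (r = 0.88, exact permutation p = 0.000705, adjusted p = 0.0105; rho = 0.80, p = 0.0138, adjusted p = 0.0415), with r = 0.75 without E77 and P74. Lgals1 and Lgals3 had r = 0.83 (exact permutation p = 0.00159, adjusted p = 0.0105) and rho = 0.77 (p = 0.0214, adjusted p = 0.0535), but r was 0.52 without the same 2 libraries and so rests in part on them.

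With the activated microglia sum, Lgals9 had r = 0.87 (exact permutation p = 0.0021, adjusted p = 0.0105) and rho = 0.87 (p = 0.00451, adjusted p = 0.0225). Lgals3bp had r = 0.83 (exact permutation p = 0.00719, adjusted p = 0.0216) and rho = 0.83 (p = 0.00827, adjusted p = 0.031). Lgals3 had r = 0.77 (exact permutation p = 0.0103, adjusted p = 0.0259) and rho = 0.87 (p = 0.00451, adjusted p = 0.0225). Without E77 and P74, r was 0.72, 0.74 and 0.61 in that order. As deviations from the means of P, C and E, the values of these 3 genes had r = 0.96, 0.90 and 0.95 with the sum, and those of Lgals1 and Lgals8 had r = 0.82 and 0.55. In the values themselves neither Lgals8 passed (r = 0.11, exact permutation p = 0.776, adjusted p = 0.831; rho = 0.13, p = 0.744, adjusted p = 0.797), nor Lgals1 (r = 0.57, exact permutation p = 0.111, adjusted p = 0.185; rho = 0.52, p = 0.162, adjusted p = 0.296). P74 and E77 were also the lowest of the model in homeostatic microglia markers (230 and 199 FPKM) and astrocyte markers (2011 and 1836 FPKM). Relations with those sums were not computed, so none of this is shown to be particular to activated microglia. The share of all tested genes with such an r was not counted.

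**Figure D4:**
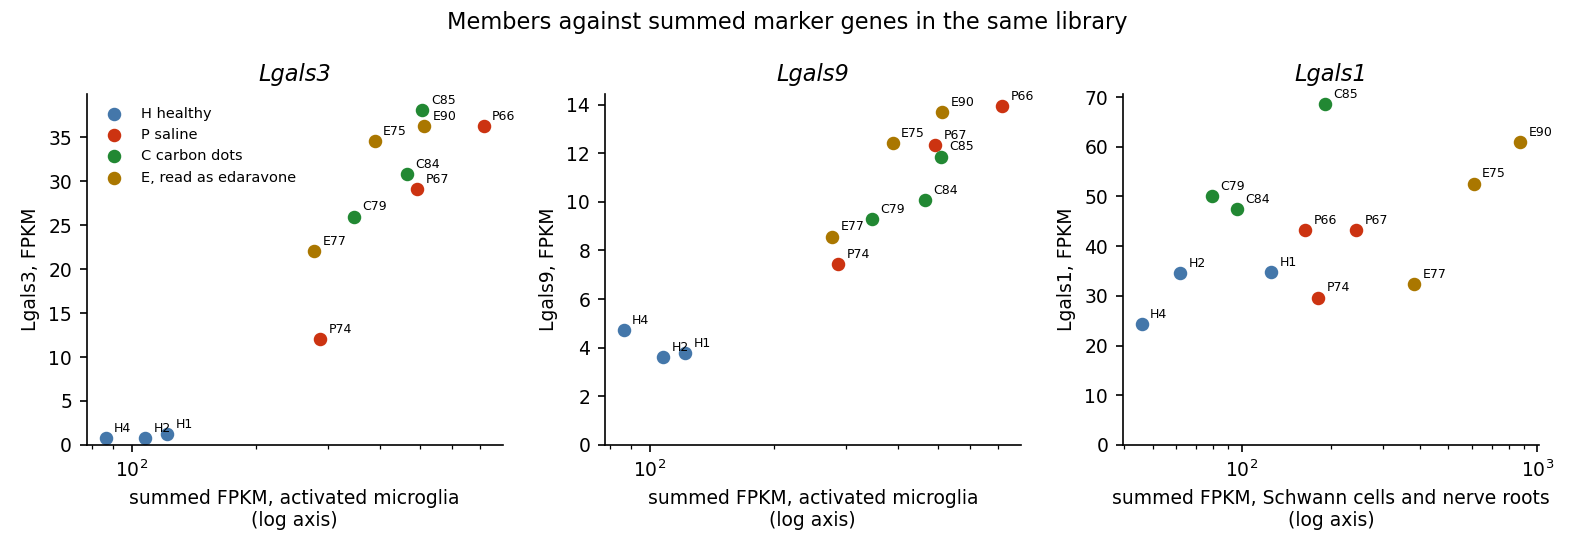
FPKM of Lgals3, Lgals9 and Lgals1 (vertical axes, from 0) against the summed FPKM of marker genes in the same library (horizontal log axes), activated microglia for the first pair and Schwann cells and nerve roots for Lgals1. P74 and E77 have the lowest microglia sums of the model, 287 and 277 FPKM, and Lgals1 has 47.4 to 68.5 FPKM in C, where nerve root markers sum to 79.1 to 191 FPKM, and 32.3 to 60.9 FPKM in E, where they sum to 384 to 874 FPKM. In H, C and E the library with the highest nerve root sum (H1, C85 and E90) also has the most Lgals1. In P, P67 has the highest sum and P66 slightly more Lgals1.

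For Lgals1, which Schwann cells and fibroblasts also make, the markers of nerve roots and meninges moved with the E group. In E against H 6 of 7 Schwann cell and nerve root markers and 8 of 8 meningeal fibroblast markers passed as higher (medians 2.22 and 2.47). In C against H the counts were 0 of 7 and 3 of 8 (medians 0.49 and 1.27). The mean of Lgals1 was 55.3 FPKM in C and 48.6 FPKM in E. Library by library, nerve root markers summed to 126, 61.8 and 45.8 FPKM in H1, H2 and H4 (Lgals1 34.8, 34.5 and 24.4). The sums were 164, 244 and 181 in P66, P67 and P74 (Lgals1 43.3, 43.2 and 29.6). They were 79.1, 96.2 and 191 in C79, C84 and C85 (Lgals1 50.1, 47.4 and 68.5). In E75, E77 and E90 they were 609, 384 and 874 (Lgals1 52.6, 32.3 and 60.9). Motor neurons, another source of galectin-1, had 3 of 8 markers lower in P against H, Chodl, Slc18a3 and Prph (-2.15 ± 0.28, -1.31 ± 0.35 and -0.99 ± 0.30). The part of either in the level of Lgals1 was not tested.

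The genes most like each of the 5 were found by Pearson's r of log2(FPKM + 1) over the 12 libraries, which mostly reflects the step from H to the model. For Lgals3 they were Ccl6 (r = 0.99), a chemokine of myeloid cells, Vim (0.99), an intermediate filament of reactive astrocytes and other cells, and Lyz2 (0.99), the lysozyme of macrophages. For Lgals3bp they were Bcl3 (0.99), an NF-kB cofactor, Cybb (0.99), the catalytic chain of the phagocyte oxidase, and Rab3il1 (0.99). For Lgals9 they were Il10rb (0.99), a chain of the interleukin-10 receptor, Dhrs3 (0.99) and Ctsc (0.99), a lysosomal protease. For Lgals1 the best matches were Serpinb6c (0.93), Tmbim6 (0.92) and Mgp (0.92), a matrix protein of vessels and fibroblasts. Lgals8 was closest to Smurf2, a ubiquitin ligase, Copb1, a coat protein of Golgi vesicles, and Tent5a (0.97, 0.96 and 0.96).

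With each value taken as its deviation from the group mean, which removes the step between groups, other genes came first. They were Samsn1, Trp53 and Blnk for Lgals3 (r = 0.99, 0.98 and 0.98), and Bcl3, Il10ra and Loxl3 for Lgals3bp (0.98, 0.98 and 0.98). Il10rb and Cst7 led for Lgals9, followed by Fgr, a kinase of myeloid cells (0.98, 0.98 and 0.97). They were H2-T22, Shc4 and Oaf for Lgals1 (0.96, 0.96 and 0.96) and Yipf6, Sntb2 and Derl2 for Lgals8 (0.95, 0.91 and 0.90). Bcl3 for Lgals3bp and Il10rb for Lgals9 were first in both orders.

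The rest of the galectin family was low or level. Of 7 further family genes listed, Lgals6 was not matched and was not analysed here, and 4 of the other 6 had enough reads to be tested. None of these 4 passed in any of the 6 comparisons. Lgalsl, which encodes a galectin-related protein that has lost sugar binding, had a mean of 18.6 ± 0.612 FPKM in H against 21.2 ± 1.52 FPKM in P (0.18 ± 0.08, adjusted p = 0.137). Grifin, a lens galectin-like gene, had 0.87 ± 0.0846 and 1.64 ± 0.657 FPKM (0.47 ± 0.20, adjusted p = 0.13). Lgals2 had 1.07 ± 0.614 and 1.80 ± 0.79 FPKM (0.43 ± 0.28, adjusted p = 0.308), and Lgals4, a galectin of gut epithelium, 2.77 ± 0.471 and 2.57 ± 0.66 FPKM (-0.09 ± 0.18, adjusted p = 0.767). Lgals7 had at most 4 reads and Lgals12 at most 15 in any library, too few to test.

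Most of the tested partners that galectins are known to bind rose in P against H. Of 24 receptors, adhesion molecules and matrix proteins listed as galectin partners, 23 were tested. The list was drawn up with earlier results of these data known, so its counts are descriptions and not separate evidence. In P against H 17 were called higher and 0 lower, where 12.2% of all tested genes were higher, with a median difference of 0.71 against 0.07 over all tested genes, and this list shares Clec7a and Trem2 with the activated microglia markers. Trem2, a microglial receptor that galectin-3 binds, had a mean of 2.23 ± 0.524 FPKM in H against 15.6 ± 5.24 FPKM in P (2.32 ± 0.24, adjusted p = 0.000302). Clec7a had 0.347 ± 0.107 and 35.2 ± 18.4 FPKM (4.63 ± 0.31, adjusted p = 4.83e-05). Ptprc, which encodes CD45 of all leukocytes, had 0.371 ± 0.0771 and 3.02 ± 1.21 FPKM (1.51 ± 0.18, adjusted p = 0.000724). The 6 that did not pass in P against H were Spn, Alcam, Plxna4, Cd40, Kdr and Cd47 (from -0.15 for Plxna4 to 0.22 for Spn). In C against H 13 were higher and in E against H 17, where 7.25% and 11.1% of all tested genes were higher, while 0 passed by limma in C against P or E against P.

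Of 18 tested enzymes that build and cap the N-glycans that galectins read, 3 rose in P against H and 0 fell (median 0.16). That count lies near the 12.2% of all tested genes that were higher. They were Man2a1, a Golgi mannosidase (0.50 ± 0.13, adjusted p = 0.024), B4galt1, which adds the galactose that galectins bind (0.69 ± 0.21, adjusted p = 0.0432), and Fut8, which adds core fucose (0.27 ± 0.08, adjusted p = 0.0462). Mgat5, which makes the branched glycans that galectin-3 prefers, differed by -0.05 ± 0.10 (adjusted p = 0.742). St6gal1, whose sialic acid caps block many galectins, differed by 0.32 ± 0.12 (adjusted p = 0.088). The last pair was named for its known roles, after the values had been seen.

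Of 24 genes that answer damage to endosomes and lysosomes, where galectin-3, galectin-8 and galectin-9 gather, 3 rose in P against H and 0 fell, with a median difference of -0.0043 against 0.07 over all tested genes. That count is at the level of the 12.2% of all tested genes that were higher. The 3 were Lamp2 (0.78 ± 0.14, adjusted p = 0.00513) and Lamp1 (0.51 ± 0.12, adjusted p = 0.0177), heavily glycosylated lysosomal membrane proteins, and Tfe3 (0.34 ± 0.09, adjusted p = 0.0342), a transcription factor for lysosomal genes. In C against P and E against P 0 of the 24 passed by limma.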

How the data were processed

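The authors deposited 1 table per group of FPKM values for 33906 gene identifiers. The tables state no unit. FPKM was settled from the values, since the values of low genes (at most 50 multiples), multiplied by the union exon length in GENCODE M21, lay within 0.02 of a whole multiple of 1 step per library in 95.2 to 95.7% of cases. Reads recovered that way summed to 16.8 to 19.8 M per library, above the totals of 15.5 to 18.4 M that the steps give, for a reason not resolved. The tools were cutadapt, featureCounts and HISAT2, on GRCm38, per the submitters' processing notes, with versions and strand setting not given in the sources used here.

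From there, limma 3.58.1 in R 4.3.3 was fitted to log2(FPKM + 1) of 18118 genes in all 12 libraries, with 1 mean per group, trended robust variances, two-sided p-values and Benjamini-Hochberg adjustment over all tested genes. A gene was tested if 3 libraries held 10 or more recovered reads of it, scaled to the median library, and all libraries together 15. Such fold changes understate those of low genes. The test was checked on simulated reads with the same spread for every gene and no scaling difference between groups. That setting is simpler than these data, so the check does not bear on single calls. FPKM was not rescaled. Groups without overlap were not counted over all tested genes.

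The members and gene lists were chosen with earlier results of these data known. Named were the 5 genes, further family genes, up to 3 members per list with the smallest adjusted p in P against H, and the 3 genes of highest r, leaving out gene models. Labels give each mouse its own number and name no batch. Alternatives were another pseudocount, 2 other filters, median-ratio scaling, the 2 groups alone, limma-voom on recovered reads and leaving out each library. Exact permutation tests used scipy 1.17.1.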

Additional observations from a re-analysis of the deposited data

How the results depend on the processing

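Calls of Lgals3, Lgals3bp and Lgals9 against H in P, C and E were kept in all 12 alternatives of each comparison, with largest adjusted p-values of 0.0063, 0.0442 and 0.0359. None of the 15 differences within the model passed, and 8 of them changed sign when single libraries were left out. In C against P the differences spanned -0.0545 to 0.70 for Lgals3 and -0.31 to 0.10 for Lgals9. In E against P they spanned -0.10 to 0.66 for Lgals3, -0.45 to 0.35 for Lgals3bp and -0.19 to 0.24 for Lgals9. In C against E they spanned -0.0505 to 0.40 for Lgals1, -0.17 to 0.18 for Lgals3 and -0.30 to 0.0047 for Lgals9.

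Of all genes, limma called 2807 in P against H (933 to 3535 with 1 library left out, 1444 without the filter, 1471 with only the 2 groups), 1505 in C against H (567 to 1915, and 736 without the filter) and 2393 in E against H (1159 to 2230, and 1469 without the filter). In C against P it called 1 (0 to 2 with 1 library left out, 0 with a pseudocount of 0.1 or limma-voom, 2 with the FPKM filter or median-ratio scaling, and 5 without the filter). In E against P it called 0 (0 to 2, and 3 without the filter), and in C against E 31 (0 to 56, 17 with a pseudocount of 0.1, 4 without the filter or with only the 2 groups). The cause was not tested. The log2 ratio of Lgals3 to Lgals1 in P against H kept its sign, at 4.13 to 4.66 with 1 library left out and 3.37 as a ratio of FPKM + 1. No paired analysis was possible because no mouse number is shared between groups.

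With 3 mice a group, the standard errors of the 5 genes were 0.07 to 0.39, and differences of over 3 standard errors could still miss the threshold, as for Lgals1 in C against H (0.81 ± 0.24).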

Other observations

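Lgalsl moved like Lgals8 between the model's groups, a pattern noticed after the values had been seen. Lgalsl had 18.1 to 19.4 FPKM in C, 19.5 to 22.3 FPKM in P and 20.1 to 22.8 FPKM in E. Every C library thus lay below every P and E library, as for Lgals8. The gap was very small, with 19.37 FPKM in C79 and 19.45 FPKM in P67. How many of all tested genes show this order was not counted. The differences of Lgalsl were -0.17 ± 0.08 in C against P (limma adjusted p = 0.51) and -0.18 ± 0.08 in C against E (limma adjusted p = 0.431), and neither passed.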
